A study of Homo sapiens with 72 samples.

Results

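MCF10A-M1 (M1) cells, a non-malignant human mammary epithelial line, were compared after 8 h with TGF-β and after 8 h with SB431542 (SB), across all long non-coding RNA (lncRNA) genes detected in the line. Members were the lncRNA genes at 0.5 TPM or more in at least 3 of the 24 M1 libraries, which gave 20899 of the 96411 genes in the table, measured here in 6 of the 72 libraries of the series. TPM is a share of transcripts corrected for length, and the authors' values were scaled so that the lncRNA genes alone sum to 1e+06 in a library. The study also holds MCF10A-M2 (M2), which is M1 transformed with HA-Ras, and the triple-negative breast cancer line MDA-MB-231.

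The TGF-β group at 8 h held 3 libraries of M1 cells given the ligand at 5 ng/mL, and the SB group held 3 libraries of M1 cells given the inhibitor at 10 µM. All M1 cells had first spent a night without serum and had been grown in medium with horse serum, EGF, hydrocortisone, cholera toxin and insulin. The vehicles named in the labels were ligand buffer for TGF-β and DMSO for SB. Neither 8 h group is a vehicle group, so a difference between them joins the action of the added ligand and the block of the receptor, and each arm was also set against its own earliest libraries. Those of the TGF-β arm are labelled as non-stimulated, and those of the SB arm are given as 0 h in the titles and 0.5 h in the treatment label; both are called 0 h here. The treatment label of the SB libraries at 0 h also gives SB at 10 µM, so these cells may already have had the inhibitor. Whether a vehicle was given at 0 h is not stated in the labels. In the TGF-β arm a change from 0 h to 8 h thus sets treated cells against vehicle-treated or untreated cells. In the SB arm it may set 8 h of SB against 0.5 h of SB. With no vehicle group at 8 h, such a change cannot be told apart from time spent without serum. M1 is a single line, and the triplicates are called biological in the design text. The markers that define a mammary epithelial cell are protein-coding genes and were not analysed here, so the label of the line was not checked against them.

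TGF-β is a secreted growth factor that binds a type II receptor, which recruits and phosphorylates the type I receptor kinase ALK5. ALK5 then phosphorylates SMAD2 and SMAD3, which join SMAD4 and enter the nucleus to alter transcription, and in mammary epithelial cells the pathway is known for growth arrest and for driving epithelial to mesenchymal transition. SB431542 occupies the ATP site of ALK5 and of the closely related ALK4 and ALK7, and so also blocks signalling by ligand that the cells make themselves. lncRNAs are long transcripts without a recognised protein product, and several are known targets or regulators of this pathway.

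The genes carry NONCODE identifiers, and the files hold no symbols beside them; the RefSeq and GENCODE tables used matched 0 of the 96411. No role is therefore given to any gene below, and only 2 identifiers in each direction are printed. In bulk RNA, fewer cells of a type and less RNA per cell cannot be told apart.

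At 8 h, M1 cells given TGF-β carried 1130 lncRNA genes at a higher level and 604 at a lower level than M1 cells given SB. These were 5.41% and 2.89% of the 20899 members, and 8.3% together (limma on log2(TPM + 0.5), all 24 M1 libraries in the fit, Benjamini-Hochberg adjusted p under 0.05). On this scale the differences of low genes are understated. The higher genes had a median log2 difference, TGF-β minus SB, of 1.15 and reached 5.15, while the lower genes had a median of −0.92 and reached −3.04. A difference of at least 1 in size on the log2 scale was found for 694 of the higher and 266 of the lower genes. At 2 or more there were 126 higher and 27 lower genes, and at 3 or more 24 higher genes and 1 lower gene. The median over all members was 0.04.

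**Figure D1:**
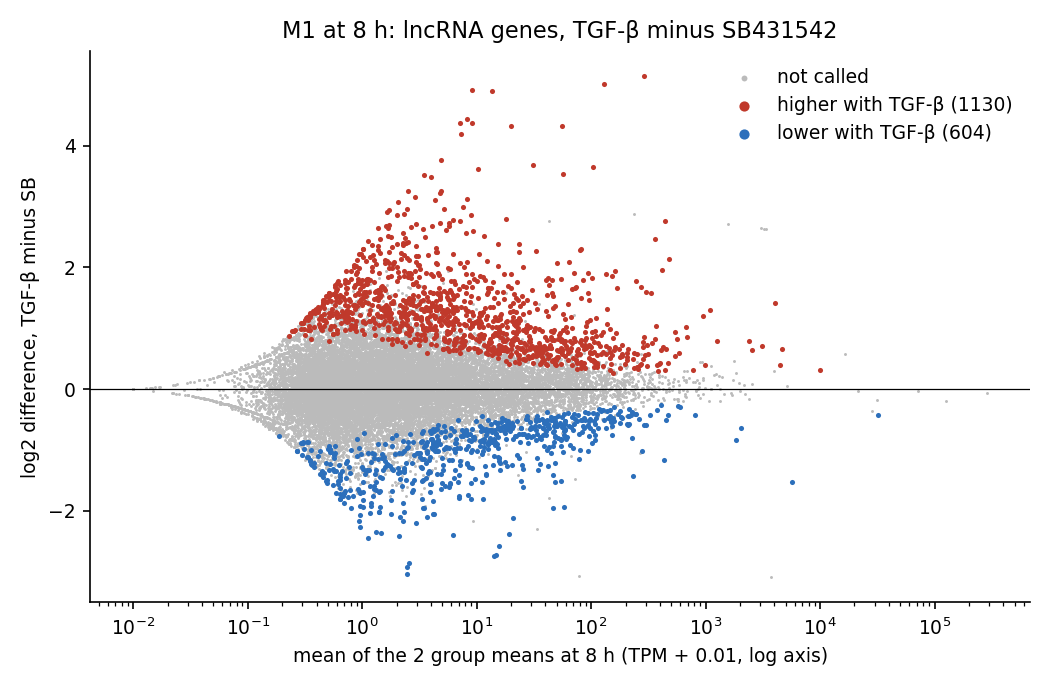
Each point is 1 of the 20899 lncRNA genes in M1 at 8 h, with the mean of the 2 group means in TPM (plus 0.01, log axis) across and the log2 difference TGF-β minus SB431542 up the page. Coloured points passed the limma test, 1130 above 0 and 604 below it; the upper side reaches 5.15, and the called genes of the lower side reach −3.04.

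The balance between higher and lower genes depended on how the libraries were scaled. The 10 most abundant genes took 59.9% to 61.9% of the TPM in the TGF-β libraries. In the SB libraries they took 64.5% to 66.8%, and the groups did not overlap. As TPM is a share, a smaller share of these 10 goes with a larger share of all other genes together. Which side changed in amount cannot be told from shares and was not tested. After median-of-ratios scaling 1095 genes were higher (5.24%) and 867 lower (4.15%), 9.39% of the members together, with a median of all members of −0.02. After quantile normalization the counts were 1110 higher and 1003 lower. When the sum used for scaling ran over every gene but the 10 most abundant, they were 912 higher and 1223 lower, the median of all members moved to −0.08, and the share of calls that were higher was 42.7%, against 65.2% on TPM as deposited. Which direction held more genes is thus not settled by these data. In all 4 scalings 899 genes were called higher (79.6% of the higher genes as deposited) and 597 were called lower (98.8% of the lower genes), and 0 genes were called in opposite directions. Of these, 527 higher and 259 lower genes differed by at least 1 in size on the log2 scale in every scaling. The 0 opposite calls do not test the direction of single genes. The median of all members moved only from 0.04 as deposited to −0.08 with the 10 most abundant genes kept out of the sum. The smallest called differences as deposited were 0.26 for higher and −0.27 for lower genes, so opposite calls were hardly possible. Every other scaling lowered the median, which favours keeping lower calls over higher ones.

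Calls were more frequent among abundant genes, where replicates differed less. Among the 590 members with a mean of 100 TPM or more over the M1 libraries, 103 were higher and 65 lower, 28.5% of the bin. The share called was 18% of the 3290 genes between 10 and 100 TPM, 7.81% of the 8741 genes between 1 and 10 TPM and 3.52% of the 8278 genes under 1 TPM. The median standard error of the log2 difference ran the other way, at 0.110, 0.173, 0.332 and 0.387 in the same order. With these larger standard errors, a gene of low level needed a larger difference to be called, so the sizes of the calls cannot be compared between bins. The median of the higher calls was 1.34 under 1 TPM and 0.65 at 100 TPM or more. That of the lower calls was −1.32 under 1 TPM and −0.48 at 100 TPM or more. Higher calls outnumbered lower calls in all 4 bins as deposited, but this order turned under other scalings. Between 10 and 100 TPM it was 370 higher and 381 lower genes after median-of-ratios scaling, 389 and 426 after quantile normalization and 285 and 558 with the 10 most abundant genes kept out of the sum. At 100 TPM or more, quantile normalization gave 80 higher and 125 lower genes, and keeping the 10 out gave 75 and 137. Between 1 and 10 TPM keeping the 10 out gave 368 higher and 398 lower genes. Under 1 TPM higher calls outnumbered lower calls in all 4 scalings.

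The 3 TGF-β libraries lay wholly above the 3 SB libraries for 3246 members (15.5%) and wholly below them for 2093 (10%), together 25.5%. Among the called genes the groups did not overlap for 1121 of the 1130 higher and 595 of the 604 lower genes. The calls were made on these same libraries, so this is largely set by the call. Conversely, 10 genes with a log2 difference of at least 2 in size were not called. Their standard errors ran from 0.73 to 2.75, against a median of 0.33 for all members, and 5 of them averaged 1000 TPM or more in the 8 h libraries.

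The most abundant lncRNA gene of M1 did not pass the test, at 282009 ± 14520 TPM in the TGF-β libraries and 293317 ± 14314 TPM in the SB libraries (SD, n = 3 each; log2 difference −0.06, limma adjusted p = 0.683). Of the 10 most abundant genes 2 were called. The fifth in rank averaged 27354 ± 2222 TPM with TGF-β and 36643 ± 2723 TPM with SB (SD, n = 3 each; log2 difference −0.42, limma adjusted p = 0.00243). It was also lower after median-of-ratios scaling (−0.51, limma adjusted p = 0.00843). The ninth averaged 11185 ± 750 TPM with TGF-β and 9001 ± 224 TPM with SB (log2 difference 0.31, limma adjusted p = 0.0116), and that call was lost after median-of-ratios scaling (0.22, limma adjusted p = 0.198). The seventh varied widely within both groups, at 20401 ± 15840 TPM with TGF-β and 22213 ± 19875 TPM with SB. Over these 10 genes the log2 differences ran from −0.42 to 0.57.

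The gene with the largest difference among the calls was NONHSAG048398.2. Its levels were 535, 553 and 590 TPM in the 3 TGF-β libraries, against 14.7, 14.9 and 16.1 TPM in the 3 SB libraries. Every TGF-β library stood far above every SB library, and the replicates of each group lay close together. The ratio of the group means was 36.7, and the log2 difference was 5.15 with a standard error of 0.09 (limma adjusted p = 4.78e-21). The gene ranked 238 among the members by mean level over the 24 M1 libraries.

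In M1 this gene differed between 0 h and 8 h in both arms. At 0 h it stood at 106 ± 10.97 TPM in the TGF-β arm and 97.3 ± 6.51 TPM in the SB arm (SD, n = 3 each). The TGF-β arm reached 489 ± 10.4 TPM at 2 h, 560 ± 28.2 TPM at 8 h and 448 ± 31.3 TPM at 24 h. The SB arm stood at 49.1 ± 2.25 TPM at 2 h, 15.2 ± 0.737 TPM at 8 h and 10.3 ± 0.331 TPM at 24 h. NONHSAG048398.2 was higher at 8 h than at 0 h in the TGF-β arm (log2 2.39, limma adjusted p = 6.65e-14) and lower at 8 h than at 0 h in the SB arm (−2.63, limma adjusted p = 8.85e-15). Both changes share the 8 h libraries with the difference between the arms.

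NONHSAG032124.2 came next. Its TGF-β libraries held 233, 277 and 251 TPM and its SB libraries 7.27, 8.53 and 6.31 TPM. The groups were again far apart, with a ratio of means of 34.4 and a log2 difference of 5.02 (standard error 0.18, limma adjusted p = 7.50e-15). The change in the SB arm was the larger in size, though the sizes were not tested against each other: it was −3.53 with SB (limma adjusted p = 1.85e-11) and 1.59 with TGF-β (limma adjusted p = 3.06e-06), each 8 h minus 0 h on the log2 scale. At 0 h the gene had 84.2 ± 11.9 TPM in the TGF-β arm and 89.9 ± 7.32 TPM in the SB arm (SD, n = 3 each). At 2 h it had 198 ± 56.4 TPM with TGF-β and 63.1 ± 9.77 TPM with SB, and at 24 h 229 ± 31.6 TPM with TGF-β and 6.45 ± 1.46 TPM with SB. The difference between the arms at 24 h was 5.06 (limma adjusted p = 3.81e-15).

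Among the lower genes that met the naming rule (at least 5 TPM in the higher group, no overlap, called in the same direction after median-of-ratios scaling), NONHSAG009471.2 had the largest difference; other called genes reached −3.04. It was read at 4.91, 2.49 and 2.74 TPM in the TGF-β libraries and at 25.7, 27.4 and 21.4 TPM in the SB libraries. No TGF-β library came near the SB range, the SB mean was 7.35 times the TGF-β mean, and the log2 difference was −2.75 (standard error 0.23, limma adjusted p = 1.62e-08). Of its changes from 0 h to 8 h, the one in the ligand arm passed the test and the one in the SB arm did not: they were −2.78 with TGF-β (limma adjusted p = 4.16e-08) and 0.46 with SB (limma adjusted p = 0.323). The TGF-β arm held 25.6 ± 4.98 TPM at 0 h, 7.31 ± 1.04 TPM at 2 h, 3.38 ± 1.33 TPM at 8 h and 2.38 ± 0.631 TPM at 24 h. The SB arm held 18.3 ± 5.16, 21.3 ± 3.09, 24.8 ± 3.05 and 23.1 ± 0.880 TPM at the same times (SD, n = 3 each).

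NONHSAG032248.2, next in size among the lower genes that met the rule, had 2.55, 3.81 and 4.39 TPM in the TGF-β libraries and 22.8, 32.1 and 23.8 TPM in the SB libraries. The groups did not overlap, the SB mean was 7.33 times the TGF-β mean, and the log2 difference was −2.72 (standard error 0.26, limma adjusted p = 1.75e-07). Its level was 15.5 ± 3.79 TPM at 0 h, 11.8 ± 1.68 TPM at 2 h, 3.58 ± 0.942 TPM at 8 h and 3.15 ± 0.762 TPM at 24 h of TGF-β. With SB it was 16.6 ± 3.47, 13.4 ± 6.37, 26.2 ± 5.11 and 26.1 ± 1.27 TPM at the same times (SD, n = 3 each). The 2 arms of this gene had not parted at 2 h, where the difference was −0.09 (limma adjusted p = 0.948). The change from 0 h to 8 h was −1.97 with TGF-β (limma adjusted p = 2.78e-05) and 0.65 with SB (limma adjusted p = 0.198).

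**Figure D2:**
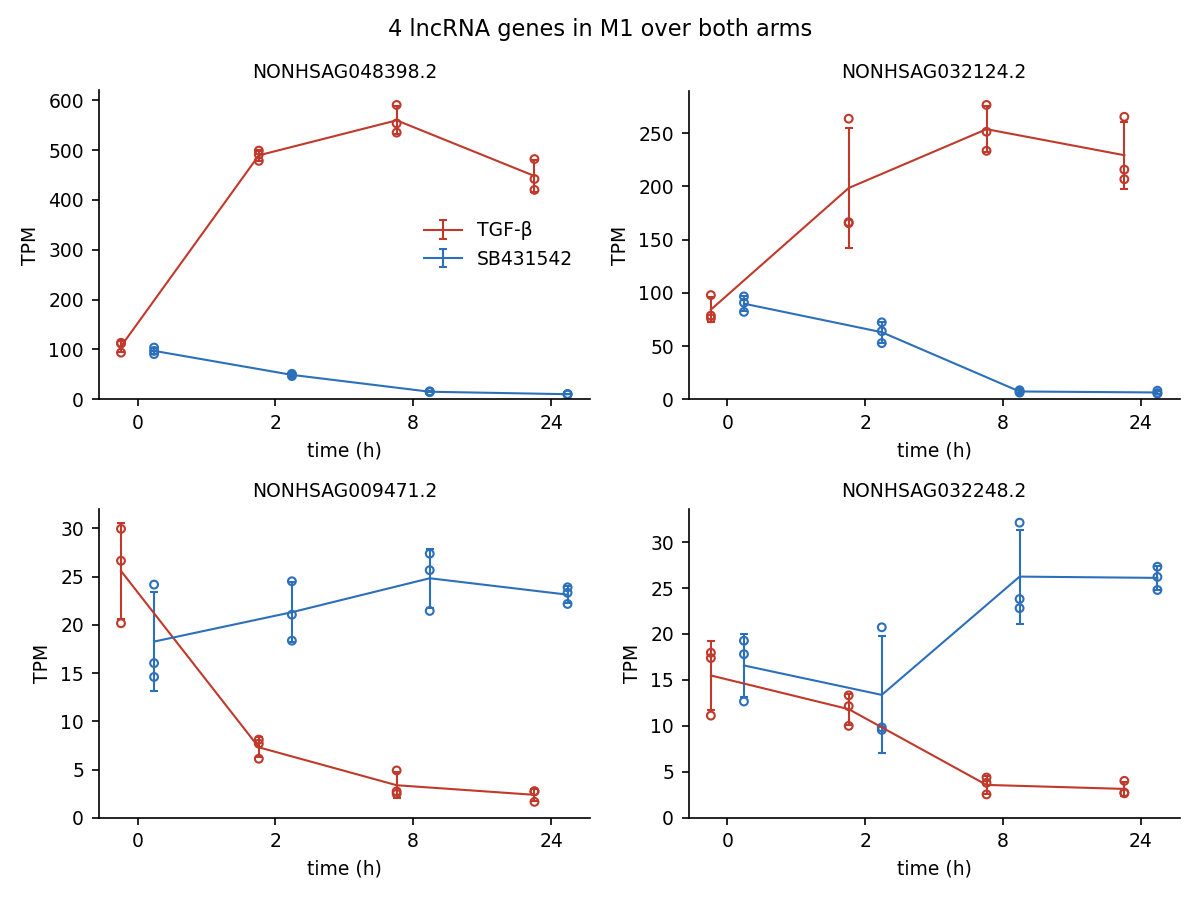
Levels in TPM (vertical axes from 0) of NONHSAG048398.2, NONHSAG032124.2, NONHSAG009471.2 and NONHSAG032248.2 in M1 against time in h (4 evenly spaced times), with points for single libraries and lines with bars for the mean ± SD of 3 libraries in the TGF-β and SB431542 arms. The first 2 genes are above 230 TPM with TGF-β and below 20 TPM with SB at 8 h, and the last 2 are below 5 TPM with TGF-β and above 20 TPM with SB.

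The rule used to name genes asked for a call in the same direction as deposited and after median-of-ratios scaling, 6 libraries without overlap and at least 5 TPM in the higher group. It was met by 645 higher and 403 lower genes. The first 10 of each direction, ranked by the size of the log2 difference, are described together. The 10 higher genes had TGF-β means of 14.1 to 560 TPM and SB means of 0.114 to 15.2 TPM, with log2 differences from 4.20 to 5.15. With SB 6 of the 10 averaged under 0.5 TPM: the third, for example, was read at 18.0, 20.2 and 15.6 TPM with TGF-β and at 0.0857, 0 and 0.255 TPM with SB. The eighth was read at 112, 104 and 106 TPM with TGF-β and at 6.56, 6.22 and 2.78 TPM with SB. The 10 lower genes were less abundant and differed less, with TGF-β means of 0.810 to 7.36 TPM, SB means of 5.05 to 34.1 TPM and log2 differences from −2.75 to −2.05. The third lower gene was read at 3.62, 4.67 and 4.08 TPM with TGF-β and at 28.8, 31.3 and 21.7 TPM with SB.

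**Figure D3:**
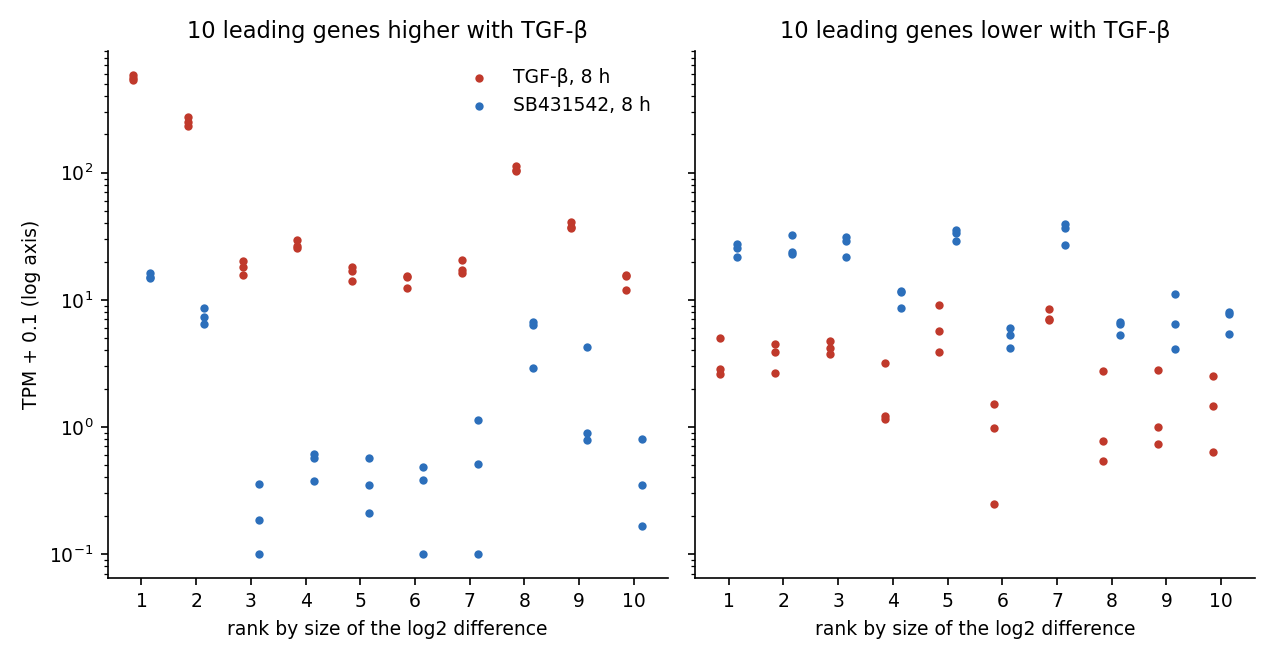
TPM + 0.1 (log axis) in each M1 library at 8 h for the 10 leading genes higher and the 10 leading genes lower with TGF-β, ordered by the size of the log2 difference, with TGF-β libraries left of SB431542 libraries at each rank. In both panels the 3 TGF-β points of a gene lie wholly on one side of its 3 SB points, which the rule for naming required, and the gap is wider on the higher side (log2 4.20 to 5.15) than on the lower side (−2.75 to −2.05).

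Each arm's own change was read for these leading genes. All 10 higher genes were called higher at 8 h than at 0 h of TGF-β, by 0.99 to 2.83 on the log2 scale, and 9 of the 10 were called lower at 8 h than at 0 h of SB, with changes from −3.53 to −0.50. Of the 10 lower genes 5 were called lower at 8 h than at 0 h of TGF-β (range of all 10, −2.78 to −0.57), and 2 were called in the SB arm (range −0.09 to 2.03). The arm changes and the difference at 8 h share libraries, so these values stand side by side and are no independent evidence.

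Over all members, TGF-β at 8 h against 0 h gave 1902 called genes (9.1%), 1103 higher (5.28%) and 799 lower (3.82%). The SB arm, 8 h against 0 h, gave 770 (3.68%), 391 higher (1.87%) and 379 lower (1.81%). After median-of-ratios scaling the TGF-β arm gave 2241 called genes (10.7%), 1088 higher (5.21%) and 1153 lower (5.52%). The SB arm then gave 1122 (5.37%), 421 higher (2.01%) and 701 lower (3.35%). The lean depended on the scaling: with the 10 most abundant genes kept out of the sum the TGF-β arm gave 1077 higher and 1063 lower genes, and the SB arm 746 higher and 371 lower. For the 1130 genes higher at 8 h, the median change from 0 h was 0.68 in the TGF-β arm and −0.36 in the SB arm. For the 604 lower genes it was −0.62 in the TGF-β arm and 0.32 in the SB arm. The medians over all members were 0.06 and 0.08 for the same arms. The higher and lower genes were chosen by the 8 h libraries that both arm changes use. Opposite signs in the arms thus follow in part from that choice. Leaving out any 1 of the 6 libraries behind the SB count gave 440 to 522 genes. The same step in the TGF-β arm gave 1271 to 1429. Such fits hold fewer samples.

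By their treatment label the SB libraries at 0 h may already have had SB for 0.5 h. At 0 h limma called 0 of the 20899 members between the arms (0% of members, while 1187 had an unadjusted p under 0.05). After median-of-ratios scaling it again called 0, with 1222 at an unadjusted p under 0.05, and it called 1 with a pseudocount of 1 and 2 with no filter on low values. The difference at 8 h minus that at 0 h was called for 662 members (3.17%), 409 higher (1.96%) and 253 lower (1.21%). After median-of-ratios scaling it was called for 829 (3.97%), 500 higher (2.39%) and 329 lower (1.57%). With the 10 most abundant genes kept out of the sum it was called for 968, 406 higher and 562 lower, which turned the balance. All 4 named genes, which were chosen by their 8 h values, passed on TPM as deposited. The values were 5.03 for NONHSAG048398.2, 5.12 for NONHSAG032124.2, −3.24 for NONHSAG009471.2 and −2.62 for NONHSAG032248.2 on the log2 scale (limma adjusted p = 1.44e-17, 7.24e-12, 8.41e-07 and 0.000105 in that order).

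**Figure D4:**
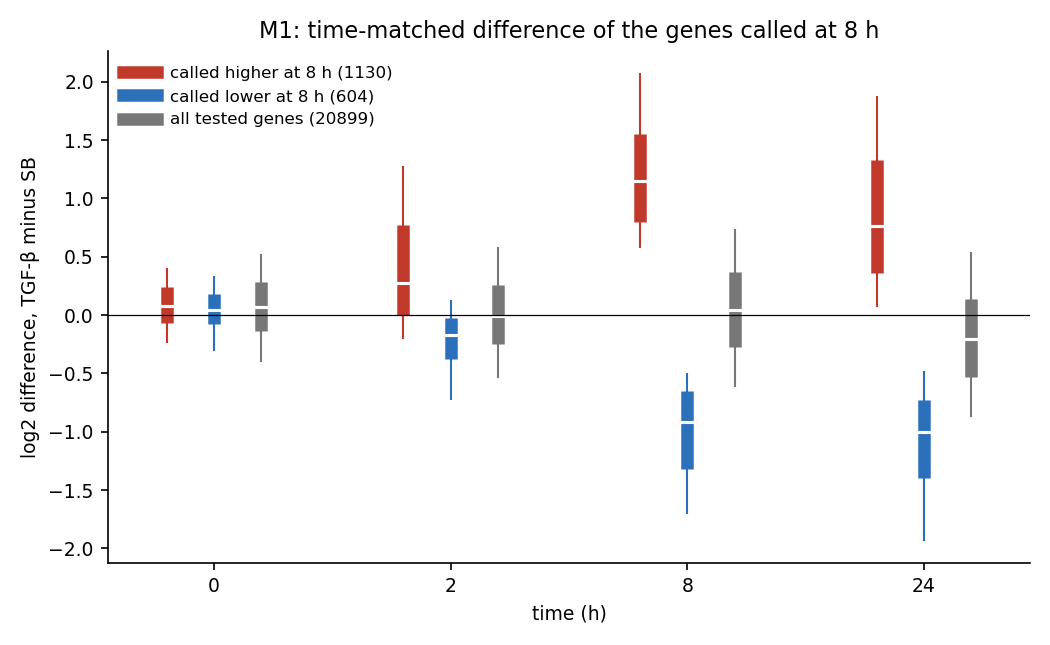
Log2 difference TGF-β minus SB431542 in M1 at 0, 2, 8 and 24 h for the genes called higher at 8 h (1130), those called lower at 8 h (604) and all 20899 members, as the median with bars from the 25th to the 75th percentile (thick) and the 10th to the 90th (thin). The genes were chosen by their 8 h values, so that time is a description; at 2 h the medians were 0.27 for the higher and −0.17 for the lower genes, and at 24 h 0.76 and −1.01, beside −0.21 for all members.

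At 2 h the same comparison called 282 members (1.35%), 215 higher (1.03%) and 67 lower (0.321%), and after median-of-ratios scaling 371 (1.78%), 278 higher (1.33%) and 93 lower (0.445%). A fit with the 2 h groups alone called 32, 27 higher and 5 lower. Of the higher genes at 8 h, 170 were higher at 2 h, which is 15% of the 8 h list and 79.1% of the 2 h list, while 1.03% of all members were higher at 2 h. Of the lower genes 27 were shared, 4.47% of the 8 h list and 40.3% of the 2 h list, against 0.321% of all members. Where each time was fitted alone, 21 higher and 3 lower genes were shared. The opposite call at 2 h was found for 2 of the higher and 0 of the lower genes. The 2 times share no library, but they share the estimate of the spread. The median log2 difference at 2 h of the genes higher at 8 h was 0.27, of the lower genes −0.17 and of all members −0.01.

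The difference at 8 h minus that at 2 h was itself tested, and 303 members passed (1.45%), 231 higher (1.11%) and 72 lower (0.345%). With median-of-ratios scaling there were 404 (1.93%), 245 higher (1.17%) and 159 lower (0.761%), and with quantile normalization 294 and 233. With the 10 most abundant genes kept out of the sum the order turned, with 197 higher and 249 lower. The named genes were chosen by their 8 h values, which this test reuses. NONHSAG048398.2 had reached most of its difference by 2 h (3.31, limma adjusted p = 6.86e-17) and gained 1.85 by 8 h (limma adjusted p = 4.49e-09). NONHSAG032124.2 had a difference of 1.62 at 2 h and gained 3.40 by 8 h (limma adjusted p = 1.73e-08). For NONHSAG032248.2 the difference at 8 h minus that at 2 h was −2.63 (limma adjusted p = 0.000212), so almost all of it arose after 2 h. NONHSAG009471.2 was already lower at 2 h (−1.48, limma adjusted p = 0.000544), and its further −1.27 was at the edge of the threshold (limma adjusted p = 0.0498) and did not pass in 13 of 21 other settings, where its adjusted p ran from 0.0122 to 0.131 over all 21.

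At 24 h the comparison called 3044 members (14.6%), 874 higher (4.18%) and 2170 lower (10.4%), with a median over all members of −0.21. After median-of-ratios scaling that median was −0.02 and 2773 members were called (13.3%), 1588 higher (7.6%) and 1185 lower (5.67%). With the 10 most abundant genes kept out of the sum they were 1186 higher and 1846 lower, and a fit with the 24 h groups alone called 1749, 572 higher and 1177 lower. Of the genes higher at 8 h, 645 were higher at 24 h, 57.1% of the 8 h list and 73.8% of the 24 h list, against 4.18% of all members. Of the lower genes 484 were lower at 24 h, 80.1% of the 8 h list and 22.3% of the 24 h list, against 10.4% of all members. After median-of-ratios scaling the shared genes were 833 higher (76.1% of the 8 h list, 52.5% of the 24 h list) and 554 lower (63.9% and 46.8%). On TPM as deposited 4 of the 8 h higher genes were called lower at 24 h, and 0 of the lower genes were called higher.

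The difference at 24 h minus that at 8 h was called for 40 members (0.191%), 8 higher (0.0383%) and 32 lower (0.153%). After median-of-ratios scaling it was called for 27 (0.129%), 22 higher (0.105%) and 5 lower (0.0239%). This count rested on single libraries. Without the third TGF-β library at 24 h it was 558, with 538 lower, and without the third SB library at 8 h it was 24. It was 26 without the third TGF-β library at 8 h and 25 without the third SB library at 24 h. None of the 4 named genes passed: the values were 0.22 for NONHSAG048398.2 (limma adjusted p = 0.511), 0.04 for NONHSAG032124.2 (limma adjusted p = 0.972), −0.31 for NONHSAG009471.2 (limma adjusted p = 0.747) and −0.16 for NONHSAG032248.2 (limma adjusted p = 0.910).

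At the low end of the range, some genes were listed at 0 TPM in all libraries of a group. Of the 20899 members, 375 were listed at 0 TPM in all 3 SB libraries and 469 at 0 TPM in all 3 TGF-β libraries. At 0 in all 6 libraries were 79 members. A stricter set was at 0 in every SB library and at 0.5 TPM or more in every TGF-β library. It held 32 of the 20899 members, with TGF-β means from 0.560 to 3.40 TPM and a median of 1.16 TPM. The reverse set, at 0 in every TGF-β library, held 21 genes, with SB means from 0.621 to 2.24 TPM and a median of 0.968 TPM. These are low levels, and as TPM keeps no depth, a 0 cannot be read as absence. A level of 0.5 TPM or more in 3 libraries meets the member rule by itself. Genes of both sets could thus become members through the group where they are high. Near the edge of the member rule the levels were as low: the 990 genes at 0.5 TPM or more in exactly 3 M1 libraries had a median mean of 0.197 TPM, and the 1452 genes just outside, with 2 such libraries, had 0.137 TPM.

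In M2 cells at 8 h the same comparison called 1174 of 16958 tested genes (6.92%), 1024 higher (6.04%) and 150 lower (0.885%). The median of all tested genes was 0.23, and after median-of-ratios scaling it was 0.06, with 1900 called genes (11.2%), 1073 higher (6.33%) and 827 lower (4.88%). With the 10 most abundant genes kept out of the sum there were 674, 588 higher and 86 lower. Among the 16505 genes tested in both lines, 414 were higher in both, 41.2% of the M1 list and 41.7% of the M2 list, while 6.02% of all these genes were higher in M2. Lower in both were 97, 17.3% of the M1 list and 66% of the M2 list, against 0.891% of all. After median-of-ratios scaling 424 genes were higher in both and 372 lower in both, and with the 10 most abundant genes kept out of the sum 263 and 51. No library is shared between the lines.

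In MDA-MB-231 cells at 8 h 155 of 16552 tested genes were called (0.936%), 111 higher (0.671%) and 44 lower (0.266%). After median-of-ratios scaling 338 were called (2.04%), 211 higher (1.27%) and 127 lower (0.767%), and a fit with the 8 h groups of MDA-MB-231 alone called 58, 42 higher and 16 lower. Of the 14915 genes tested in both lines 61 were higher in both, 7.47% of the M1 list and 68.5% of the MDA-MB-231 list, against 0.597% of all. Lower in both were 9 genes, 1.8% of the M1 list and 25.7% of the MDA-MB-231 list, against 0.235% of all. After median-of-ratios scaling 97 were higher in both (12.2% of the M1 list, 53.3% of the MDA-MB-231 list) and 21 lower in both (2.79% and 19.3%), and 8 higher and 6 lower genes of M1 had the opposite call in MDA-MB-231. The median log2 difference in MDA-MB-231 was 0.08 for the genes higher in M1 and −0.07 for those lower in M1, with −0.05 for all genes tested in both. In M2 the same medians were 0.83, −0.38 and 0.23.

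**Figure D5:**
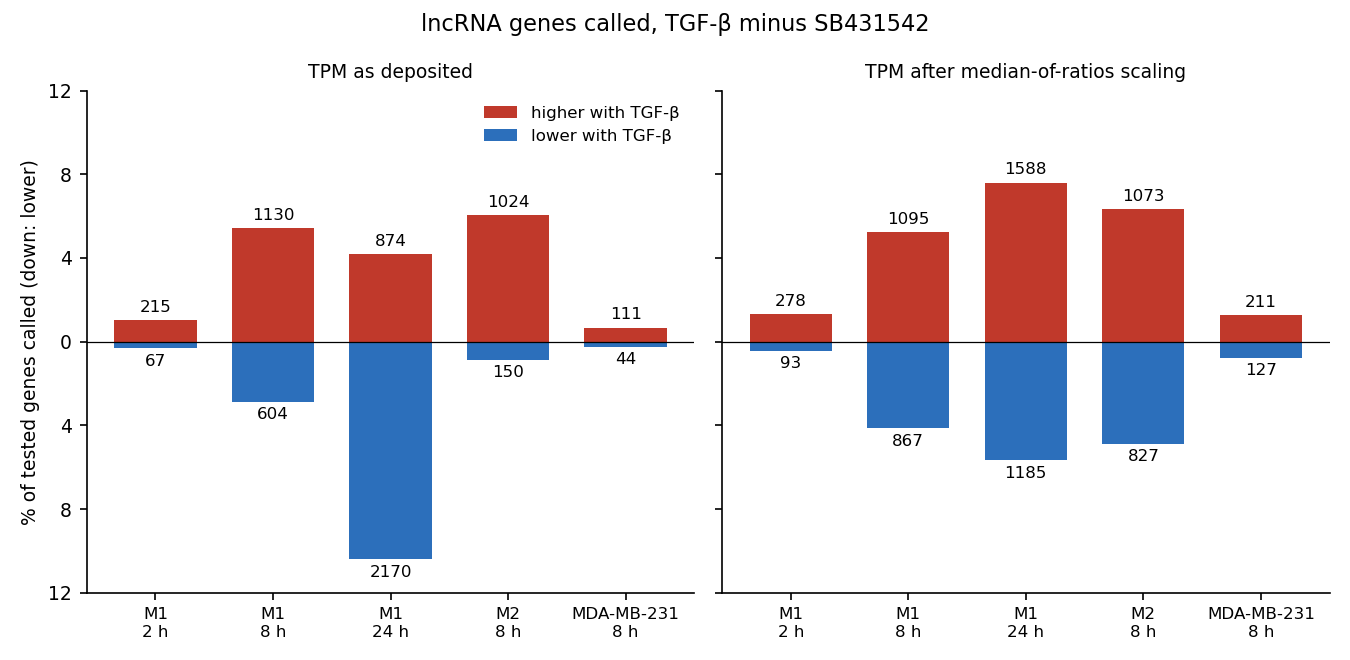
Percentage of tested lncRNA genes called higher (upward bars) or lower (downward bars) with TGF-β than with SB431542 in M1 at 2, 8 and 24 h and in M2 and MDA-MB-231 at 8 h, with the number of genes on each bar, on TPM as deposited and after median-of-ratios scaling. M1 at 8 h shows 1130 higher and 604 lower genes as deposited and 1095 and 867 after scaling, and the split at 24 h turns from 2170 lower and 874 higher to 1588 higher and 1185 lower.

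Whether the 8 h difference itself differed between lines was tested in fits of 48 libraries. M1 minus M2 was called for 113 of the genes tested (0.517%), 57 above 0 (0.261%) and 56 below it (0.256%). After median-of-ratios scaling it was called for 243 (1.11%), 149 above 0 (0.682%) and 94 below it (0.43%), and with the 10 most abundant genes kept out of the sum for 42 above 0 and 60 below it. Without the first or the second SB library of M2 at 8 h it was 72. M1 minus MDA-MB-231 was called for 743 genes (3.24%), 512 above 0 (2.23%) and 231 below it (1.01%), and after median-of-ratios scaling for 1126 (4.91%), 653 above 0 (2.85%) and 473 below it (2.06%).

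NONHSAG048398.2 stood at 464 ± 111 TPM with TGF-β and 16.6 ± 6.92 TPM with SB in M2 (SD, n = 3 each), and at 221 ± 15.6 TPM with TGF-β and 34.0 ± 1.22 TPM with SB in MDA-MB-231. The log2 difference of M1 exceeded that of MDA-MB-231 by 2.47 (limma adjusted p = 5.06e-10), and M1 minus M2 was 0.32 (limma adjusted p = 0.795). For all named genes these line differences reuse the M1 values at 8 h by which the genes were chosen. NONHSAG032124.2 stood at 221 ± 65.0 TPM with TGF-β and 15.6 ± 6.98 TPM with SB in M2, and at 148 ± 15.1 TPM with TGF-β and 2.23 ± 0.811 TPM with SB in MDA-MB-231. Its line differences passed only after rescaling: M1 minus M2 was 1.20 as deposited (limma adjusted p = 0.115) and 1.36 after median-of-ratios scaling (limma adjusted p = 0.000473), and M1 minus MDA-MB-231 was −0.78 (limma adjusted p = 0.292) and −1.004 (limma adjusted p = 0.0111). Over 21 other settings the adjusted p of NONHSAG032124.2 ran from 1.25e-05 to 0.334 for M1 minus M2 and from 0.0111 to 0.533 for M1 minus MDA-MB-231.

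NONHSAG032248.2 was lower with TGF-β in all 3 lines, at 12.3 ± 2.97 TPM with TGF-β and 39.6 ± 11.4 TPM with SB in M2, and at 23.9 ± 2.46 TPM with TGF-β and 66.4 ± 8.86 TPM with SB in MDA-MB-231 (SD, n = 3 each). Its difference was more negative in M1 than in MDA-MB-231 by −1.27 (limma adjusted p = 0.0182), a call lost in 3 of 21 other settings (adjusted p from 0.000208 to 0.0752). M1 minus M2 for NONHSAG032248.2 was −1.09 (limma adjusted p = 0.308) and passed in 1 of 21 other settings, quantile normalization (−1.40, limma adjusted p = 0.0207; range over the 21 from 0.0207 to 0.576). NONHSAG009471.2 stood at 9.48 ± 2.49 TPM with TGF-β and 23.2 ± 1.53 TPM with SB in M2, a log2 difference of −1.28 (limma adjusted p = 0.0260). In MDA-MB-231 NONHSAG009471.2 was near the bottom of the range, at 0.424, 0 and 0 TPM with TGF-β and 0.396, 0.944 and 1.70 TPM with SB. M1 minus M2 for NONHSAG009471.2 was −1.48 (limma adjusted p = 0.126) and likewise passed after quantile normalization alone (−1.74, limma adjusted p = 0.0200; range over 21 settings from 0.0200 to 0.377). M1 minus MDA-MB-231 for NONHSAG009471.2 was −1.54 (limma adjusted p = 0.0374). The call was lost after median-of-ratios scaling (−1.34, limma adjusted p = 0.0628) and in 12 of 21 other settings in all. Over the 21 the adjusted p ran from 0.00096 to 0.858, and both ends came from the pseudocount. The value was −0.41 with a pseudocount of 0.1 (limma adjusted p = 0.858) and −1.81 with 1 (limma adjusted p = 0.00096). At such low levels in MDA-MB-231, the size of this line difference thus depends on the pseudocount.

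Of the 10 leading higher genes of M1, 9 were tested in M2 and all 9 were called higher there, with log2 differences from 3.00 to 4.83. In MDA-MB-231 8 were tested and 5 called, with a range of 0.08 to 5.80. Of the 10 leading lower genes all were tested in M2 and 6 called, from −2.36 to −0.92, and 7 were tested in MDA-MB-231 with 1 called, from −1.45 to 0.56. At 2 h in M1, 9 of the higher and 3 of the lower leading genes were called, and at 24 h 10 and 8.

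The 6 libraries at 8 h held similar numbers of lncRNA genes above the 0.5 TPM limit, 16434 to 16541 in the TGF-β group and 15494 to 16748 in the SB group. One gene took 26.6% to 29.4% of the TPM in the TGF-β libraries and 28.2% to 30.9% in the SB libraries. Across members on the log2 scale, replicates correlated with r of 0.945 to 0.947 with TGF-β and 0.956 to 0.959 with SB, and libraries of different groups with 0.928 to 0.934; genes are not independent replicates, and these values are descriptions. Leaving out any 1 of the 6 libraries gave 1255 to 1394 called genes.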

How the data were processed

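Total RNA was isolated with TRIzol and sequenced on an Illumina platform, per the labels' protocols. The table deposited by the authors holds TPM values, 96411 lncRNA genes by 72 libraries. Per the submitters' processing notes, the build was GRCh38 and the tools included StringTie 1.3.6, HISAT2 2.2.0, cutadapt 2.10 and FastQC. Which annotation was used, whether strand was kept and how genes were filtered is not given in the sources used here, so reads of overlapping, antisense or near-identical genes cannot be told apart. TPM keeps no depth; the depth is unknown and no counting interval was possible.

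Groups were taken from the labels; the design text speaks of 36 samples where 72 are listed. No columns were identical. The two-sided test was limma's moderated test (limma 3.58.1 with lmFit, contrasts.fit and a trended eBayes; R 4.3.3; the data.table package, version 1.17.8) on log2(TPM + 0.5), for genes with 3 or more libraries of a fit at 0.5 TPM or above. A fit held all 24 libraries of a single line (M1, M2 or MDA-MB-231) in 8 groups, or the 48 of M1 and another line. The M2 and MDA-MB-231 counts at 8 h came from the fits of those lines alone. Benjamini-Hochberg adjustment ran over all genes of a fit, and genes were called at an adjusted p under 0.05. If the triplicates were not separate cultures, these p-values describe no more than the scatter among the libraries. For the 3 against 3 libraries of a single gene an exact permutation test could not go below 0.1 and was not used. The code was tested on simulated data.

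Genes were named by the rule given in the report. The members, the rule and the groupings by level were chosen with earlier results of these data known, and no gene lists or cell markers were used because the identifiers could not be matched to symbols. Sequences and positions were not used here. Alternatives changed the scaling (median-of-ratios, quantile normalization, or a total without the 10 most abundant genes), the pseudocount (0.1 or 1), the filter (none, or a gene mean of 1 TPM or above) and the samples in the fit (compared groups alone, or without each library in turn), or added the replicate number as a block.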

Additional observations from a re-analysis of the deposited data

Results flagged for a closer look

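Differences that themselves differed between times or lines were singled out by tests of that difference in limma, with adjusted p under 0.05. Between 2 h and 8 h in M1 these were 303 genes. They include the named genes NONHSAG048398.2 (1.85 on the log2 scale), NONHSAG032124.2 (3.40), NONHSAG009471.2 (−1.27) and NONHSAG032248.2 (−2.63). For NONHSAG009471.2 the call was lost in 13 of 21 other settings. The named genes were chosen by their M1 values at 8 h, which all the differences in this section reuse, so their passing is no independent evidence. Between 8 h and 24 h in M1 there were 40 genes and none of the named ones. Between M1 and M2 at 8 h there were 113 genes and again none of the named ones. Between M1 and MDA-MB-231 at 8 h there were 743 genes, among them NONHSAG048398.2 (2.47), NONHSAG009471.2 (−1.54) and NONHSAG032248.2 (−1.27). This call was lost in 12 of 21 other settings for NONHSAG009471.2 and in 3 of 21 for NONHSAG032248.2. For NONHSAG009471.2, which was near the bottom of the range in MDA-MB-231, the value was −0.41 with a pseudocount of 0.1 and −1.81 with a pseudocount of 1. The causes were not tested.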

How the results depend on the processing

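The count of 1734 genes at 8 h ran from 1265 with the 2 groups alone to 2135 with a scaling total without the 10 most abundant genes, and from 1255 to 1394 with 1 library left out. For the 4 named genes the 8 h difference kept its direction and its call in all 15 settings tried. These genes were chosen by the size of that same difference and by a call after median-of-ratios scaling, which is among the 15. The outcome was thus largely set by the choice. Other counts moved by over 1.5 times. M1 minus M2 gave 47 with a pseudocount of 0.1, 48 at a mean of at least 1 TPM, 243 after median-of-ratios scaling, 206 after quantile normalization and 65 with the compared groups alone. M1 minus MDA-MB-231 gave 1126 and 1166 after the same 2 scalings. The 8 h minus 2 h difference gave 527 after quantile normalization and 153 with the groups alone, and the 24 h minus 8 h difference gave 76 at a mean of at least 1 TPM and 19 with the groups alone. With the groups alone the TGF-β arm gave 1171, the SB arm 434, M1 at 2 h 32, M1 at 24 h 1749 and MDA-MB-231 at 8 h 58, and the genes called alike in M1 at 8 h and elsewhere were 24 (2 h), 678 (24 h), 340 (M2) and 29 (MDA-MB-231), against 197, 1129, 511 and 70 in the fits of all libraries of a line. With a scaling total without the 10 most abundant genes, M2 at 8 h gave 674 and shared 314 genes with M1. Leaving out 1 library gave 1271 to 1429 in the TGF-β arm, 440 to 522 in the SB arm, 496 to 589 for 8 h minus 0 h, 215 to 308 for 8 h minus 2 h, 24 to 558 for 24 h minus 8 h, 72 to 145 for M1 minus M2 and 521 to 678 for M1 minus MDA-MB-231. The uncalled 24 h minus 8 h value changed sign for NONHSAG032248.2 (0.16 after median-of-ratios scaling, 0.0937 with the total without the top 10, 0.24 after quantile normalization), for NONHSAG009471.2 (0.0783 after quantile normalization) and for NONHSAG032124.2 in 5 of 12 fits without 1 library (−0.0703 to 0.204 over the 12). The groups-alone and left-out fits also held fewer samples. The causes of these changes were not tested. Libraries of the same number did not deviate together at 8 h (r of 0.0153, 0.00141 and −0.0134 across genes). As these values are taken over all members, many of them low, they do not decide whether the numbers mark pairs. With the replicate block the counts were 1777 at 8 h, 1978 and 808 in the TGF-β and SB arms, 710, 331 and 51 for the differences between times in the order above, 108 for M1 minus M2 and 787 for M1 minus MDA-MB-231. Depth is unknown, so the certainty of low values is unknown.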
